A study of Mus musculus with 6 samples.

Results

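The 10 genes described here encode hypothalamic neuropeptides: Oxt, Avp, Hcrt, Pmch, Agrp, Cartpt, Gal, Trh, Ghrh and Crh. They were taken by gene name from the 53801 genes of the deposited count table, and all 10 were among the 23975 genes that had at least 10 counts over the 6 libraries and were tested. Counts of RNA-seq reads per gene came from one brain hemisphere of each of 3 Bahd1-WT mice, with both copies of Bahd1 intact, and 3 Bahd1-KO mice, with both copies inactivated. All 6 mice were adult C57BL/6 animals of about 70 weeks with no other treatment given in the labels. BAHD1 is a chromatin protein that takes part in gene repression. In the design, the KO libraries are compared with the WT libraries to ask which brain transcripts differ when Bahd1 is inactivated in the whole animal, in every cell type and from development on.

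Each gene makes a precursor that is cut into a secreted peptide. In the hypothalamus these genes are expressed in small groups of neurons: oxytocin and vasopressin in the large neurons that project to the posterior pituitary, orexin and melanin-concentrating hormone in separate neurons of the lateral hypothalamus that bear on arousal and feeding, AgRP in arcuate neurons that promote feeding, and the releasing hormones in neurons that control the anterior pituitary. Several are also expressed elsewhere in the brain, such as Crh, Cartpt and Trh. Because the libraries were made from a whole hemisphere, fewer cells of a type and less RNA per cell cannot be told apart in any of the values below.

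Libraries held between 42297150 and 93557948 counts, so that 3 counts corresponded to 0.0315 to 0.0689 CPM (counts per 1000000 counts of the library, with library sizes scaled by edgeR's TMM factors). Bahd1 itself had 1383, 844 and 1099 counts in Bahd1-WT replicates 1 to 3 and 0, 14 and 1 counts in Bahd1-KO replicates 1 to 3, in keeping with the labels. The libraries differed in a property that touches most of the members. Among 13283 expressed genes, the KO to WT difference followed the GC content of the transcript, with a Spearman correlation across genes of 0.86, and the median log2 fold change went from -0.55 in the lowest to 1.40 in the highest of 10 GC bins of equal size. Bahd1-KO replicate 2 lay at the end of this trend. In the highest bin its median level was 1.44 above the mean of the 6 libraries on the log2 scale, against 0.53 for replicate 3, -0.04 for replicate 1 and -0.90 to -0.37 for the WT libraries. Each member is therefore also given without Bahd1-KO replicate 2 and under an offset, the GC and length offset. This offset removes the trend fitted in each library. Only genes averaging over 1 in log2 CPM, the 13283 above, entered the bins and this fit. For members with lower levels, such as Oxt, Avp, Hcrt, Agrp and Ghrh, the trend was carried over from those genes.

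None of the 10 members was called different between genotypes by edgeR's quasi-likelihood test at a Benjamini-Hochberg adjusted p under 0.05 and at least 2-fold, a rule that called 2 of all genes tested (0.00834%). The count of 0 was not stable: it was 4 (Avp, Cartpt, Hcrt and Oxt) without Bahd1-KO replicate 1, where 16.8% of all genes were called, and 3 (Avp, Cartpt and Hcrt) by DESeq2 with its normal prior, which called 13.1% of the genes with an adjusted p. There were 5 members at an unadjusted p under 0.05 in edgeR. Fitted levels were higher in Bahd1-KO for 9 members and lower for Pmch, with a median log2 fold change of 1.24, beside -0.06 over all genes tested. At an adjusted p under 0.1, the genes Oxt, Avp and Cartpt were higher and Pmch was lower, that is 3 of 10 and 1 of 10, where the same rule took 14.7% of all genes as higher and 4.77% as lower. At an unadjusted p under 0.05, Hcrt joined the higher genes to make 4 of 10, with a background of 19.9%, and Pmch remained the 1 lower gene, with a background of 12%. The KO libraries all lay above the WT libraries for Oxt, Avp and Cartpt and all below for Pmch, while 20.6% and 19.3% of all genes were separated in these ways.

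A large part of these differences came from 1 library. Bahd1-KO replicate 2 was the highest of the 6 libraries for 8 of the 10 members, where it was highest for 33.3% of all genes tested, and the lowest for 1 of 10, Pmch, where it was lowest for 30.7% of all genes. It lay at least 2-fold above every other library for Oxt, Avp, Hcrt, Agrp and Ghrh, 5 of 10 members, while 6.29% of all genes did so. It was at least 2-fold below every other library for 0 members and 2.12% of genes. The members' median log2 fold change was 0.52 without it, 0.22 under the GC and length offset, and -0.01 under both changes, beside -0.05, 0.09 and 0.05 over all genes tested.

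**Figure D1:**
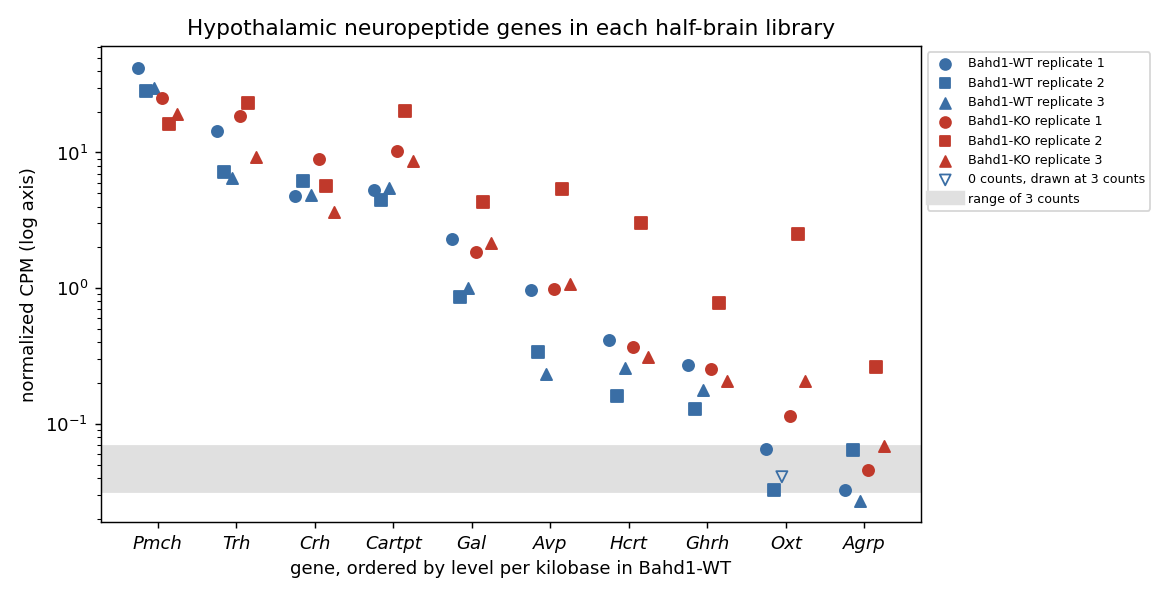
Normalized CPM (log axis) of the 10 genes in each half-brain library, blue for Bahd1-WT and red for Bahd1-KO, with the replicate number as symbol. The grey band is the level of 3 counts in the 6 libraries, and the open triangle marks 0 counts. Bahd1-KO replicate 2 (red square) stands above the other libraries for Gal, Avp, Hcrt, Ghrh, Oxt, Agrp, Cartpt and Trh, and is the lowest for Pmch.

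Levels between genes were compared as normalized CPM per kilobase of exon. In Bahd1-WT, Pmch was highest at 44.6 ± 10.1 (SD, n = 3), followed by Trh at 6.76 ± 3.12, Crh at 3.98 ± 0.58 and Cartpt at 3.98 ± 0.433, the last pair with overlapping libraries. Gal at 1.77 ± 1.02, Avp at 0.892 ± 0.693, Hcrt at 0.372 ± 0.171 and Ghrh at 0.289 ± 0.109 came next, and the libraries of each overlapped those of its neighbour in this order. Oxt at 0.0608 ± 0.061 and Agrp at 0.0411 ± 0.02 were lowest and overlapped each other. In Bahd1-KO, Pmch was again highest at 26.8 ± 6 and Agrp lowest at 0.124 ± 0.117. Neighbours in the KO order were separated in 3 places, Pmch above Trh, Cartpt above Crh, and Ghrh above Agrp.

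Oxytocin and vasopressin are encoded by neighbouring genes on opposite strands of mouse chromosome 2 (GRCm38). Oxt lies at 130576173 to 130577054 on the plus strand with 3 exons, and Avp lies at 130580620 to 130582554 on the minus strand, with 3565 bases between them. Bahd1 is on the same chromosome, 11651645 bases from Oxt. Both precursors hold a neurophysin, the carrier of the hormone, and the transcripts share an identical coding run of 127 bases, shown here since it bears on which gene a read is given to. The run covers bases 119 to 245 of the 375 coding bases of Oxt and bases 131 to 257 of the 504 coding bases of Avp, counted from the start codon and without the stop codon. It is longer than the reads, so reads from inside it match both genes, and the values of both are uncertain to that extent. G and C are in capitals, and make up 70.1% of the run.
Oxt and Avp shared run: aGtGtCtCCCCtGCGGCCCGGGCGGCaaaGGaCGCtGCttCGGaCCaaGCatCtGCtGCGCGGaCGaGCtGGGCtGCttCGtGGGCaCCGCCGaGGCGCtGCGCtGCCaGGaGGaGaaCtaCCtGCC

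Oxt had 6, 2 and 0 counts in Bahd1-WT replicates 1 to 3 (0.0656, 0.0324 and 0 CPM) and 5, 237 and 12 counts in Bahd1-KO replicates 1 to 3 (0.115, 2.49 and 0.207 CPM). The KO libraries lay above the WT libraries, and replicate 2 stood 12.0-fold above the highest of the others. Counting error left the lower libraries unresolved: the exact 95% Poisson interval of KO replicate 1, 0.0373 to 0.268 CPM, overlapped that of WT replicate 1, 0.0241 to 0.143 CPM, while that of KO replicate 2 was 2.18 to 2.83 CPM. Such intervals cover counting error only. The fitted log2 fold change was 4.75 ± 1.3 (SE, unadjusted p = 0.00567, adjusted p = 0.0653 by edgeR's quasi-likelihood test, n = 3 per genotype), and it was 2.20 without Bahd1-KO replicate 2 (adjusted p = 0.161). Under the GC and length offset it was 2.86 (adjusted p = 0.116). The genotypes did not overlap there, but KO replicate 1 and WT replicate 1 were close, at -2.88 and -2.95 on the log2 scale, from 5 and 6 counts. The share of all genes separated under the offset was not computed, for Oxt or for the members below. With the offset and without replicate 2 the log2 fold change of Oxt was 1.35 (adjusted p = 0.493).

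Avp had 89, 21 and 17 counts in the WT libraries (0.972, 0.34 and 0.232 CPM) and 43, 509 and 62 counts in the KO libraries (0.988, 5.34 and 1.07 CPM). KO replicate 1 and WT replicate 1 were near each other, with Poisson intervals of 0.715 to 1.33 and 0.781 to 1.2 CPM, and KO replicate 2 was 4.99-fold above the highest other library. KO exceeded WT by a log2 fold change of 2.25 ± 0.76 (SE, adjusted p = 0.0926 by edgeR) and 0.98 without KO replicate 2 (adjusted p = 0.274). It was 0.07 ± 0.38 under the GC and length offset (adjusted p = 0.934), where the genotypes overlapped, and Avp had the highest GC content of the members at 65.7%. DESeq2 with its normal prior called Avp, Hcrt and Cartpt as higher in KO, 3 of the 8 members to which it gave an adjusted p, beside 11.9% of 19308 genes called as higher. The count of Oxt as a percentage of the count of Avp was 6.74, 9.52 and 0 in the WT libraries and 11.6, 46.6 and 19.4 in the KO libraries, so Oxt was nearest to Avp in KO replicate 2.

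The 250 bases before the start site are shown for the pair above and for the lateral hypothalamic genes Hcrt and Pmch described next, where KO replicate 2 stood highest for Oxt, Avp and Hcrt and lowest for Pmch. They are RefSeq sequences of GRCm38.p6, where 8 of the 10 members had an entry, and Agrp and Crh are named only. Each runs 5′ to 3′ along the gene, and capitals mark matches to any of 5 motifs searched on both strands: the canonical TATA box TATAAA, found in 12.4% of 32851 promoter windows of the same kind, its variant CATAAA in 10.8%, the nuclear receptor half-site AGGTCA in 14%, the E-box CACGTG in 6.02%, and the cAMP response element TGACGTCA in 1.55%.
Oxt promoter, chr2:130575919-130576168 (plus strand): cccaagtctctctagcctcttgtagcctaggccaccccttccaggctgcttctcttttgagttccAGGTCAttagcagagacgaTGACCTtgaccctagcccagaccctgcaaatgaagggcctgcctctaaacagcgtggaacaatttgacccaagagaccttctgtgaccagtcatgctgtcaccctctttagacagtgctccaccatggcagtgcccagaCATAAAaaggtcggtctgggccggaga
Avp promoter, chr2:130582589-130582838 (minus strand): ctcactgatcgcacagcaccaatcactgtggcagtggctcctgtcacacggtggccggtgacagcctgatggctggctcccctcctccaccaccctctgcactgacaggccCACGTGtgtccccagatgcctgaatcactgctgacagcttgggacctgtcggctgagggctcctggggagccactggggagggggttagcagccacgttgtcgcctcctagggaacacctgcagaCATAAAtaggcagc
Hcrt promoter, chr11:100762932-100763181 (minus strand): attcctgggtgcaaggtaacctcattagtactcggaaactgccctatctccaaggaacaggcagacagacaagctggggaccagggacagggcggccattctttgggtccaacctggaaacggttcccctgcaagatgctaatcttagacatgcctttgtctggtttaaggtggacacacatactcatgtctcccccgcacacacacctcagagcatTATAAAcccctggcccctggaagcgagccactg
Pmch promoter, chr10:88090822-88091071 (plus strand): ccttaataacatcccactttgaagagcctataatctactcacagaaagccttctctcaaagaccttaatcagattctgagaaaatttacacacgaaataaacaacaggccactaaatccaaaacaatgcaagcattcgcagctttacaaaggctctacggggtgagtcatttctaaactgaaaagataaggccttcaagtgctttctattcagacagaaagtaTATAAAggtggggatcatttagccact

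The Oxt window held CATAAA at -27 from the start site and AGGTCA at -185 and, on the other strand, at -166. The Avp window held CATAAA at -14 and CACGTG at -139. TATAAA stood at -33 in the Hcrt window and at -27 in the Pmch window. Of the other members, the Cartpt window held TGACGTCA at -112, the Trh window AGGTCA on the other strand at -57, and the Gal window none of the 5. Ghrh has a pair of start sites, with AGGTCA at -179 from one and TATAAA at -31 and AGGTCA at -84 from the other. The AGGTCA matches of Ghrh were also on the other strand. The 4 windows printed had a GC content of 54.0% (Oxt), 62.4% (Avp), 53.6% (Hcrt) and 38.4% (Pmch). A match is a description of the letters and was not tested for a relation to the counts.

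Hcrt, which encodes the precursor of the orexins, and Pmch, which encodes that of melanin-concentrating hormone, mark separate neurons of the lateral hypothalamus, and their fitted differences had opposite signs. Hcrt lies on chromosome 11 at 100761069 to 100762931 (minus strand) and Pmch on chromosome 10 at 88091072 to 88092375 (plus strand), where it overlaps Parpbp on the other strand. The study's methods state counting by strand in the forward sense, while kits of the stranded type they name usually call for the reverse one, and the kit name in the labels does not mention strand. Which of these applies to the counts was not settled here, so reads of Pmch and Parpbp may not be told apart. Both have 749 bases of exon in the annotation, so that their counts can be set side by side, but they differ in composition, with a GC content of 60.2% for the Hcrt transcript and 41.7% for Pmch. The first 150 coding bases from the start codon, from GENCODE M21 transcripts, show this contrast with G and C in capitals.
Hcrt coding bases 1 to 150: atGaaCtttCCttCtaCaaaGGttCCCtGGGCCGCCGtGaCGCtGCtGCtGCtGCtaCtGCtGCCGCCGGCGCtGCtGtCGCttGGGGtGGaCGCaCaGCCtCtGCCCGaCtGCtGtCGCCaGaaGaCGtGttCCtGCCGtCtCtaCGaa
Pmch coding bases 1 to 150: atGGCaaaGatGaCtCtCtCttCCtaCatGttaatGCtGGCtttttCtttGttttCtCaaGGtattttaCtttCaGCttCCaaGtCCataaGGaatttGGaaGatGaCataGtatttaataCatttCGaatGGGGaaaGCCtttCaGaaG

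Hcrt had 38, 10 and 19 counts in the WT libraries (0.415, 0.162 and 0.259 CPM) and 16, 290 and 18 counts in the KO libraries (0.368, 3.04 and 0.311 CPM). Only KO replicate 2 left the WT range, at 7.33-fold above the highest other library, and KO replicates 1 and 3 lay inside it. For Hcrt the log2 fold change was 2.17 ± 0.85 (SE, adjusted p = 0.124 by edgeR), and 0.25 without KO replicate 2 (adjusted p = 0.765). It was 0.43 under the GC and length offset (adjusted p = 0.679), and -0.55 with the offset and without replicate 2 (adjusted p = 0.584).

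Pmch had 3859, 1755 and 2177 counts in the WT libraries (42.2, 28.4 and 29.7 CPM) and 1087, 1538 and 1107 counts in the KO libraries (25.0, 16.1 and 19.1 CPM). Every KO library lay below every WT library, and the gap between KO replicate 1 and WT replicate 2 was small beside the spread within each genotype. For Pmch the log2 fold change was -0.74 ± 0.23 (SE, adjusted p = 0.0821 by edgeR), -0.60 without KO replicate 2 (adjusted p = 0.116) and -0.32 under the GC and length offset (adjusted p = 0.375), where the genotypes overlapped. DESeq2 with its prior gave an adjusted p of 0.0372 with a log2 fold change of -0.69, under 2-fold. As a percentage of the Pmch count, the Hcrt count was 0.985, 0.57 and 0.873 in the WT libraries and 1.47, 18.9 and 1.63 in the KO libraries, so the ratio lay between 0.57% and 1.63% in 5 libraries and far above them in KO replicate 2.

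**Figure D2:**
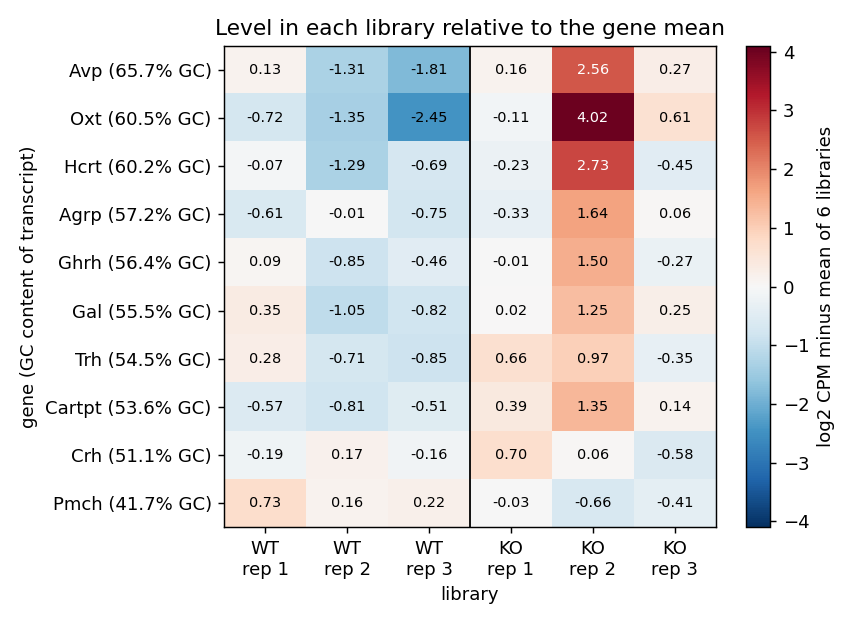
Level of each gene in each library as log2 CPM minus the gene's mean over the 6 libraries, with genes ordered by GC content of the transcript from top to bottom. KO replicate 2 goes from 4.02 for Oxt and 2.73 for Hcrt to 0.06 for Crh and -0.66 for Pmch.

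Agrp encodes agouti-related peptide, an antagonist of melanocortin receptors made by arcuate neurons. It lies on chromosome 8 (105566698 to 105637393, minus strand), and its annotated exons overlap Gm5914 on the same strand and Ctcf on the other, which, with the strand setting unsettled, makes its few counts uncertain. It had 3, 4 and 2 counts in the WT libraries (0.0328, 0.0648 and 0.0273 CPM) and 2, 25 and 4 in the KO libraries (0.046, 0.262 and 0.0691 CPM). KO replicates 1 and 3 had no more than 4 counts, as did all WT libraries, so a difference outside KO replicate 2 was not detectable at this depth. The log2 fold change of 1.72 ± 0.76 (SE, adjusted p = 0.16 by edgeR) was 0.52 without that library (adjusted p = 0.724) and 0.58 under the GC and length offset (adjusted p = 0.656).

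Cartpt, the gene of the cocaine- and amphetamine-regulated transcript peptide, was the member with the lowest adjusted p. It lies on chromosome 13 (99898489 to 99901091, minus strand). It had 482, 275 and 404 counts in the WT libraries (5.27, 4.45 and 5.51 CPM) and 448, 1910 and 501 counts in the KO libraries (10.3, 20.1 and 8.65 CPM). The lowest KO library was above the highest WT library, and the WT libraries were close together, with an SD of 0.16 on the log2 scale beside a median of 0.15 over 14706 genes with a mean of at least 1 CPM. The log2 fold change was 1.36 ± 0.32 (SE, unadjusted p = 0.00251, adjusted p = 0.0634 by edgeR), and 0.90 without KO replicate 2 (adjusted p = 0.0523). Under the GC and length offset it was 0.86 ± 0.2 (unadjusted p = 0.0017, adjusted p = 0.0739 by edgeR), with no overlap between genotypes, and 0.61 when KO replicate 2 was also left out (adjusted p = 0.127). Oxt and Cartpt were the 2 of 10 members that were higher in KO at an unadjusted p under 0.05 with the offset, as were 17.2% of all genes tested.

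The releasing hormones Trh, Ghrh and Crh, which act on thyrotrophs, somatotrophs and corticotrophs of the pituitary, did not pass the test. Trh (chromosome 6, 92242061 to 92244650, minus strand) had 14.3, 7.21 and 6.54 CPM in the WT libraries and 18.7, 23.1 and 9.24 CPM in the KO libraries, from 445 to 2199 counts. WT replicate 1 and KO replicates 1 and 2 were the highest 3 libraries. These were also the libraries with the highest summed level of 6 olfactory bulb markers, 217, 130 and 123 CPM in WT and 244, 242 and 128 CPM in KO. Most of the sum was Calb2, at 135, 109 and 98.9 CPM in WT and 153, 198 and 110 CPM in KO. In KO replicate 2, Cdhr1 and Eomes were at 22.3 and 11.7 CPM, below WT replicate 1 (50.4 and 21.1) and KO replicate 1 (50.8 and 23.6). Doc2g was at 4.64 CPM there, beside 4.32 and 5.84 CPM in the same libraries. Omp, the marker of olfactory sensory neurons, had 364, 11 and 5 counts in WT and 379, 338 and 8 in KO. Trh is also expressed in the olfactory bulb, and the part of this tissue in the Trh values was not tested. The log2 fold change of Trh was 0.86 ± 0.40 (SE, adjusted p = 0.173 by edgeR), 0.57 without KO replicate 2 (adjusted p = 0.363) and 0.28 with the GC and length offset (adjusted p = 0.65). Without WT replicate 1 it was 1.30 (adjusted p = 0.117).

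Ghrh (chromosome 2, 157329497 to 157347506, minus strand) had 25, 8 and 13 counts in the WT libraries (0.273, 0.13 and 0.177 CPM) and 11, 74 and 12 counts in the KO libraries (0.253, 0.777 and 0.207 CPM). KO replicates 1 and 3 lay within the WT range. Its log2 fold change was 1.12 ± 0.55 (SE, adjusted p = 0.193 by edgeR), 0.22 without KO replicate 2 (adjusted p = 0.81) and 0.05 under the GC and length offset (adjusted p = 0.959). Crh (chromosome 3, 19693401 to 19695396, minus strand) had 4.76, 6.14 and 4.87 CPM in the WT libraries and 8.89, 5.67 and 3.64 CPM in the KO libraries. Its KO libraries spanned the WT range on both sides, and KO replicate 2 lay within it. The log2 fold change of Crh was 0.21 ± 0.32 (SE, adjusted p = 0.677 by edgeR), with 0.24 without KO replicate 2, 0.08 under the offset and -0.14 without KO replicate 1.

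Gal, the galanin gene (chromosome 19, 3409915 to 3414544, minus strand), had 212, 53 and 74 counts in the WT libraries (2.32, 0.858 and 1.01 CPM) and 80, 413 and 125 counts in the KO libraries (1.84, 4.34 and 2.16 CPM). WT replicate 1 lay above KO replicates 1 and 3. Its log2 fold change was 0.99 ± 0.46 (SE, adjusted p = 0.171 by edgeR), 0.52 without KO replicate 2 (adjusted p = 0.453) and 0.16 with the GC and length offset (adjusted p = 0.809). Without WT replicate 1 it was 1.57 (adjusted p = 0.108). The spread within a genotype could be set beside other genes only for the members with a mean of at least 1 CPM in both genotypes, since counting error widens it at lower levels. In Bahd1-WT the SD of log2 CPM was 0.16 for Cartpt, 0.20 for Crh, 0.31 for Pmch, 0.61 for Trh and 0.75 for Gal, beside a median of 0.15 over 14706 genes with a mean of at least 1 CPM in all libraries together. In Bahd1-KO it went from 0.32 for Pmch to 0.69 for Trh in these 5 genes, beside a median of 0.32.

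Set against the GC trend, the members followed nearly the order of their GC content. The Spearman correlation of GC content with the log2 fold change over the 10 members was 0.92, and 0.32 after the GC and length offset. These points share the same 6 libraries, so the values are descriptions. Members below the level of the genes in the bins, such as Oxt, Avp, Hcrt, Agrp and Ghrh, were placed by GC content alone. The log2 fold changes of Gal, Ghrh and Crh were 0.99, 1.12 and 0.21. They lay near the medians of the bins with matching GC content, 0.89, 0.89 and 0.05. Pmch at -0.74 lay below its bin at -0.43, and Trh at 0.86 above its bin at 0.54. Oxt at 4.75, Avp at 2.25 and Hcrt at 2.17 lay above their bin at 1.40, with standard errors of 1.3, 0.76 and 0.85, and Cartpt at 1.36 and Agrp at 1.72 above theirs at 0.54 and 0.89. In KO replicate 2 alone, the levels of Oxt, Avp and Hcrt were 4.02, 2.56 and 2.73 above the gene's mean on the log2 scale. The median was 1.44 for the more highly expressed genes of the bin matched to their GC content.

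**Figure D3:**
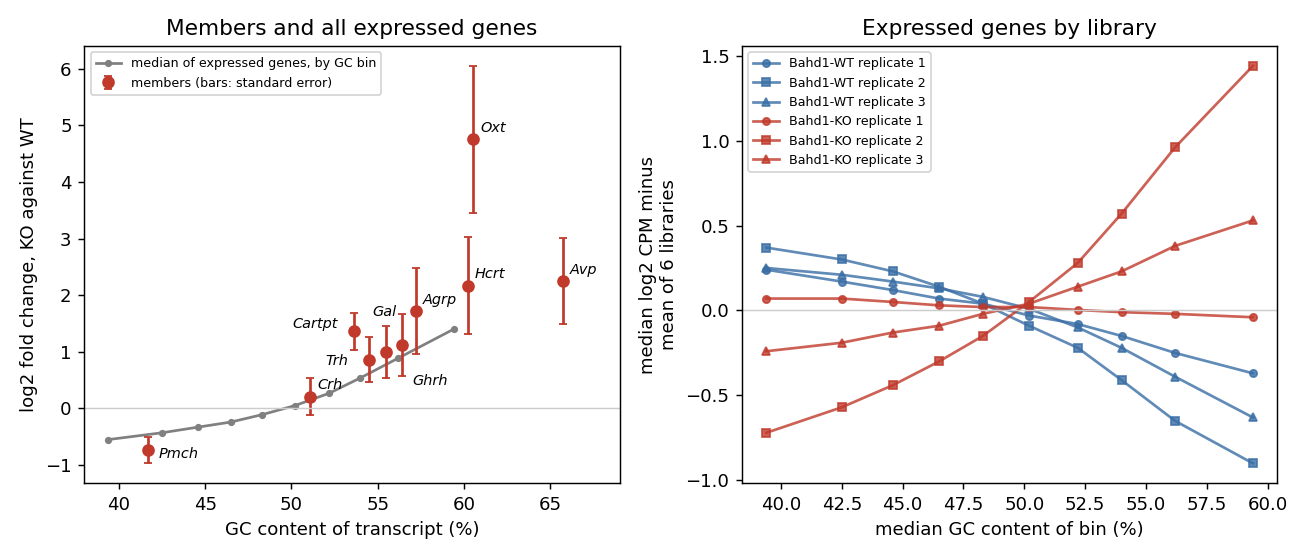
Left, log2 fold change (KO against WT) of each member with its standard error against the GC content of its transcript, with the median of expressed genes in each of 10 GC bins in grey, from -0.55 to 1.40. Right, for each library, the median log2 CPM relative to the mean of the 6 libraries by GC bin, where KO replicate 2 has the steepest line, ending at 1.44.

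**Figure D4:**
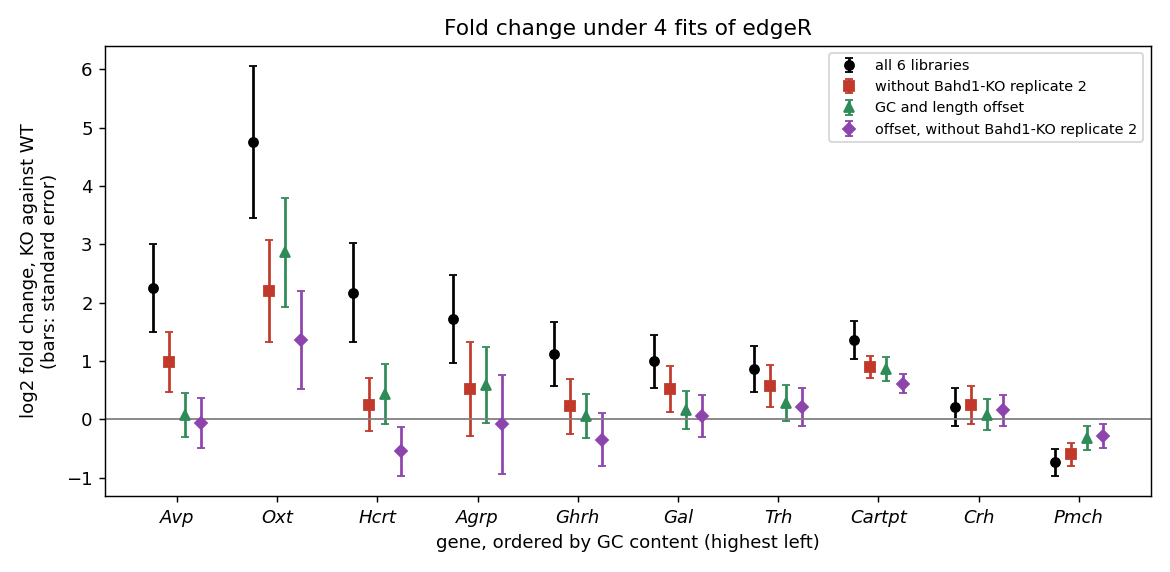
Log2 fold change (KO against WT) of each member with its standard error under 4 fits of edgeR, with genes ordered from the highest GC content on the left to the lowest on the right. Cartpt stays between 0.61 and 1.36 in the 4 fits, while Avp goes from 2.25 to -0.07 and Hcrt from 2.17 to -0.55.

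Summed markers of hypothalamic tissue were not highest in KO replicate 2, which was the highest library for 7 of 17 genes on the list, beside 33.3% of all genes tested. The summed level of 17 transcription factors of hypothalamic nuclei was 332, 309 and 356 CPM in WT and 297, 330 and 372 CPM in KO, and most of it came from Arnt2 and Pou3f2, which are broadly expressed. Without these, the other 15 summed to 53.7, 51.4 and 51.3 CPM in WT and 44, 45.5 and 44.8 CPM in KO, but Six3, Lhx1 and Lhx9, which are also expressed outside the hypothalamus, made up most of this sum. Leaving them out too, a choice made after the values were seen, the remaining 12 summed to 14.9, 10.7 and 11.9 CPM in WT and 10, 12.8 and 9.19 CPM in KO, so that KO replicate 2 lay above every library but WT replicate 1 and the genotypes overlapped. The part of hypothalamic tissue in the members' values was not tested. Nkx2-1, which specifies the ventral hypothalamus, had 3.11, 1.65 and 2.33 CPM in WT and 1.82, 1.55 and 0.881 CPM in KO. Sim1, needed for the paraventricular nucleus where Oxt, Avp, Trh and Crh neurons lie, had 2.40, 1.28 and 1.36 CPM in WT and 1.17, 0.693 and 1.04 CPM in KO. All its KO libraries lay below all WT libraries, as for 19.3% of all genes tested. Otp, on the same list, had 2.62, 2.53 and 2.59 CPM in WT and 2.51, 4.24 and 2.88 CPM in KO. Its log2 fold change was 0.32 (adjusted p = 0.392 by edgeR), and KO replicate 2 was its highest library. None of the 17 was called. At an unadjusted p under 0.05, Rax and Hmx3 were higher and Six6, Sim1 and Pou3f2 lower in KO, 2 and 3 of 17, beside 19.9% and 12% of all genes tested. The list's median log2 fold change was -0.05, beside -0.06 over all genes, and -0.23 under the GC and length offset, beside 0.09. Pou3f2 and Sim1 had log2 fold changes of -0.55 and -0.82 (adjusted p = 0.105 and 0.137 by edgeR), Nkx2-1 of -0.74 (0.169) and Tbx3 of -0.43, and none passed the threshold. Under the offset Pou3f2 was at -0.10 and Sim1 at -0.14, while Nkx2-1 was at -1.51 and Tbx3 at -0.84 (adjusted p = 0.0739 and 0.0746 by edgeR). Six3 and Otp, named after their values were seen, were at -0.52 and -0.69 under the offset (adjusted p = 0.0741 and 0.0829 by edgeR). The share of all genes at this level under the offset was not computed. Rax, Hmx3 and Six6 are named after their values were seen, and Rax and Hmx3 had no more than 4 counts outside KO replicate 2, where each had 22.

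Other tissues next to the hypothalamus varied from library to library. The summed level of 10 pituitary markers was 17.9, 0.291 and 0.0273 CPM in WT and 0.115, 1.2 and 39.1 CPM in KO, and Gh had 579, 1 and 0 counts in WT and 0, 1 and 1517 in KO, so that WT replicate 1 and KO replicate 3 stood far above the others. Choroid plexus markers summed to 385, 374 and 292 CPM in WT and 468, 1089 and 623 CPM in KO, of which Ttr made up the most in every library and 1018 CPM in KO replicate 2. The other 5 summed to 75.6, 88.8 and 78.7 CPM in WT and 66.6, 70.5 and 69.9 CPM in KO. Sums for tanycyte markers (406 to 477 CPM), thalamus markers (324 to 456 CPM) and striatum markers (395 to 586 CPM) had KO replicate 2 as the lowest library for tanycytes and thalamus and the highest for striatum. Single markers went both ways, and KO replicate 2 was the highest library for 3 of 7, 3 of 6 and 4 of 6 of them. In the thalamus list, Rora was lowest there at 126 CPM, while Ramp3, Prkcd and Lef1 were highest at 14.9, 90 and 14.8 CPM. In the striatum list, Ppp1r1b was highest there at 309 CPM and Drd1 lowest at 25.7 CPM. The part of these tissues in the members' values was not tested.

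Receptors of the 10 peptides were described from a list of 17 genes, of which 15 were tested and Avpr2 and Galr2 had too few counts. None was called. At an adjusted p under 0.1, 3 of 15 were higher and 0 lower in Bahd1-KO, beside 14.7% and 4.77% of all genes. At an unadjusted p under 0.05 it was 5 and 1, beside 19.9% and 12% (with Trhr2 and Galr1, named after their values were seen, at 1.63 and -0.64 on the log2 scale), and the median log2 fold change was 0.23 (0.05 with the GC and length offset). Hcrtr1, an orexin receptor, had 0.699, 0.534 and 0.559 CPM in WT and 1.01, 3.90 and 1.40 CPM in KO. Its KO libraries all lay above its WT libraries, with a log2 fold change of 1.82 ± 0.49 (SE, adjusted p = 0.0647 by edgeR), of 1.01 without KO replicate 2 and of 0.62 with the offset. Hcrtr2, the other orexin receptor, had 5.83 ± 0.287 CPM in WT and 4.73 ± 1 CPM in KO (SD, n = 3), with all KO libraries below all WT libraries. Its log2 fold change was -0.31, which was 0.38 with the offset. Of all genes tested, 20.6% were separated in the direction of Hcrtr1 and 19.3% in that of Hcrtr2.

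The CRH receptors Crhr1 and Crhr2 had log2 fold changes of 1.10 ± 0.33 and 1.28 ± 0.31 (SE, adjusted p = 0.0727 and 0.0634 by edgeR). Crhr1 was at 8.19 ± 1.34 CPM in WT and 17.5 ± 8.2 CPM in KO, and Crhr2 at 0.842 ± 0.132 and 2.03 ± 0.74 CPM (SD, n = 3). Their log2 fold changes were 0.67 and 0.93 without KO replicate 2, and 0.05 and 0.64 with the offset. Mchr1, the receptor of melanin-concentrating hormone, had 12.0 ± 0.895 CPM in WT and 19.0 ± 5.89 CPM in KO, the direction opposite to that of Pmch. Its log2 fold change was 0.67 (adjusted p = 0.105), 0.38 without KO replicate 2 and -0.01 with the offset. The oxytocin receptor Oxtr was at 8.54 ± 0.641 CPM in WT and 8.65 ± 1.21 CPM in KO (log2 fold change 0.02, adjusted p = 0.96). The melanocortin receptor Mc4r, on which AgRP acts, was at 3.61 ± 0.849 and 3.77 ± 0.709 CPM (log2 fold change 0.06, adjusted p = 0.882, and 0.48 under the offset). These receptors have many sources outside the hypothalamus in a hemisphere.

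**Figure D5:**
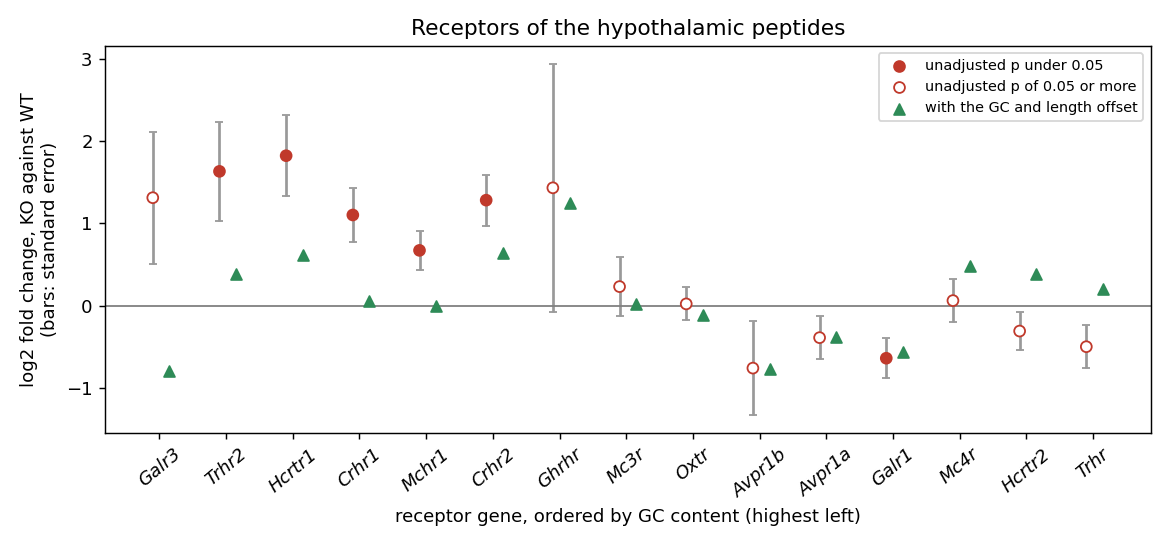
Log2 fold change (KO against WT) with its standard error for the 15 receptor genes tested, ordered by GC content from the highest on the left, filled where the unadjusted p was under 0.05, with the value under the GC and length offset as a green triangle. Crhr1 goes from 1.10 to 0.05 and Hcrtr1 from 1.82 to 0.62 with the offset.

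Of 5 genes that bind, degrade or modulate these peptides, 4 were tested, Asip was not found in the table by this name, and none was called. Sdc3, a co-receptor for AgRP action, had 123 ± 17.6 CPM in WT and 233 ± 86.4 CPM in KO (log2 fold change 0.91, adjusted p = 0.0693 by edgeR, and -0.14 with the offset). Lnpep, which degrades oxytocin and vasopressin, had a log2 fold change of -0.65 (adjusted p = 0.104) that was 0.06 under the offset, and Trhde, which degrades TRH, one of -0.35 that turned to 0.22. The CRH-binding protein gene Crhbp was at 0.03. Of 15 other hypothalamic peptide genes, 12 were tested, with Kiss1, Galp and Npw below the filter, and none was called, with a median log2 fold change of 0.04 (0.26 under the offset). At an adjusted p under 0.1, 2 of 12 were higher, beside 14.7% of all genes: Tac2 and, named after its values were seen, Npb, with 2, 1 and 2 counts in WT and 2, 50 and 11 in KO. Tac2, the neurokinin B gene, had 4.46, 3.68 and 5.43 CPM in WT and 9.10, 12.8 and 6.44 CPM in KO, a log2 fold change of 1.06 ± 0.29 (SE, adjusted p = 0.065 by edgeR) that was 0.67 with the offset. Pomc, which is made in the arcuate nucleus and the pituitary, had 171, 22 and 13 counts in WT and 3, 285 and 230 in KO, so its genotypes overlapped widely (log2 fold change 1.54 ± 1.09, adjusted p = 0.343). Grp had a log2 fold change of 0.46 and Nts of -0.33, and both turned under the offset, to -0.20 and 0.23.

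The genes whose levels over the 6 libraries were most like those of Oxt, Avp, Hcrt and Pmch were found by the root mean square difference of log2 CPM centred on each gene's mean, among the genes with a mean of at least 1 CPM. For Oxt these were Tpgs1 (0.41), Rprml (0.41) and Yjefn3 (0.42), with a median of 2.06 over all genes. For Avp they were Gm13889 (0.27), Odf3b (0.30) and Scx (0.33), and for Hcrt Dpm3 (0.33), Crlf2 (0.34) and Romo1 (0.35). All 9 had their highest level in KO replicate 2, and their GC content was between 54.1% and 66.2%. For Pmch the nearest genes were Dnah12 (0.08), Gm12940 (0.09) and Scn9a (0.11), with a GC content of 40.6% to 42.4%. None of these 12 is a member. By the same measure the closest pair of members was Gal and Ghrh (0.31), and the farthest was Oxt and Pmch (2.40).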

How the data were processed

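RNA was extracted from one hemisphere per mouse with a column kit that removes small RNA, and poly(A) libraries were sequenced. According to the submitters' processing notes, the authors trimmed reads with cutadapt 1.11, aligned them with STAR 2.5.0a and counted them on exons with featureCounts 1.4.6-p3, in GRCm38. Their supplementary methods also name Tophat2. The authors deposited whole-number counts per gene without normalization, 1 column per mouse. The table held 0 columns of samples from elsewhere. Read length and platform are given differently in the paper and its supplement.

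Samples were grouped by genotype from their titles. Genes whose counts summed to 10 or more were tested with edgeR 4.0.16 (TMM, quasi-likelihood, genotype as the only factor) in R 4.3.3, with Benjamini-Hochberg adjustment over all genes tested. DESeq2 1.42.0, other scalings and filters, leaving out each library, a replicate block and an offset per library (natural splines of GC content with 5 degrees of freedom and log length with 3, on 13283 genes) were alternatives. Log2 CPM used a prior count of 2. Depth was 42297150 to 93557948 counts, and 3 counts set the floor. Poisson intervals were exact at 95%. Each sample was 1 animal. Positions and lengths came from GENCODE M21. The fits were tested on simulated data. From each list the genes called would have been named, and otherwise the 4 with the lowest unadjusted p among those with a mean of at least 0.5 CPM, together with Pomc, Oxtr, Hcrtr1, Hcrtr2, Mc4r and Crhr1. For the likeness of pattern the 3 nearest genes were named. The members and lists were chosen with earlier results of these data known.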

Additional observations from a re-analysis of the deposited data

How the results depend on the processing

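The number of members called, 0 with TMM in edgeR, was 2 with total counts alone (Cartpt and Oxt), 3 with DESeq2 with the normal prior and 3 without it (Avp, Cartpt and Hcrt), and 4 with a filter of at least 1 count (Avp, Cartpt, Hcrt and Oxt). Of all genes, these settings called 8.37%, 13.1%, 14.3% and 8.45%, against 0.00834% with TMM. It went from 0 to 4 when each library was left out in turn, with 4 only without Bahd1-KO replicate 1, where 16.8% of all genes were called. For the genes of the 4 lists, 0 of 48 called became 4 with total counts, 6 with DESeq2 with the prior and 6 without it, 7 of 53 with the lower filter, and 0 to 8 when a library was left out, with 8 of 48 without Bahd1-KO replicate 1. The cause was not tested. DESeq2 gave no adjusted p for Oxt or Agrp, and edgeR's own filter left both untested. For Oxt, DESeq2 gave no unadjusted p either, while for Agrp it gave 0.0872 with the normal prior. Crh reversed to -0.14 without Bahd1-KO replicate 1, and was at up to 0.47 with another library left out. With the GC and length offset and without Bahd1-KO replicate 2, a setting chosen after seeing the data, Avp reversed to -0.07, Hcrt to -0.55, Agrp to -0.09 and Ghrh to -0.35. Over the settings, the log2 fold change of Oxt stayed between 1.35 and 5.86, that of Cartpt between 0.61 and 1.60, and that of Pmch between -0.89 and -0.28. The labels state no pairing of same-numbered libraries beyond the number. Their deviations from the group means correlated at -0.644, -0.656 and -0.144. Unlike numbers gave 0.629 (WT replicate 2 with KO replicate 1) and 0.619 (WT replicate 1 with KO replicate 2). With 3 libraries per genotype these values cannot settle a pairing. A block by replicate number was fitted as an alternative. With this replicate block 0 members were called, with or without the offset, where 0.0501% and 0.0292% of all genes were, and Ghrh was at -0.004 with both. Depth limits Agrp and, outside Bahd1-KO replicate 2, Oxt.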
